A study of Mus musculus with 24 samples.

Results

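Respiratory complex I is described here through the genes of its nuclear-encoded subunits (Nduf genes) and of the assembly factors named Ndufaf. Members were all rows of the expression tables whose gene symbol is Nduf, then letters, a number and an optional letter, with no hyphen. Of the 56941 genes listed, 51 matched, of which 8 are Ndufaf genes and 43 are counted as subunit genes. Among those 43 are Ndufa4, whose protein is now regarded as a subunit of complex IV, and 5 genes that resemble another member (Ndufa11b, Ndufb4b, Ndufb4c, Ndufb11b, and Ndufs6b). The rule itself uses symbols and no measured value.

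The tissues were C2C12 muscle sheets, grown from a mouse myoblast line that fuses into contractile myotubes, on a fibrin hydrogel. All cells, controls included, carried the ChR2::tdTomato construct, in which channelrhodopsin-2 opens under blue light and makes the muscle contract. Tissues were lit each day for 60 min at 1, 4, or 10 Hz, or were left unstimulated, over about 2 weeks of differentiation in horse serum with IGF-1. Each condition had 6 libraries that the study calls biological replicates, or 24 libraries in all. A single cell line was used, so the replicates are separate tissues of 1 line, and p-values measure the spread between them. Unstimulated controls received no light, so the light and the contractions it drives cannot be told apart. The study reports that tissues of all conditions twitched spontaneously, so the controls also contracted.

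Complex I takes electrons from NADH, passes them along a chain of iron-sulfur clusters to ubiquinone, and pumps protons across the inner mitochondrial membrane. It is L-shaped. The N module at the tip of the peripheral arm oxidizes NADH, the Q module below it reduces ubiquinone, and the membrane arm, which has a proximal and a distal part, pumps protons. The mitochondrial genome encodes the core of the membrane arm, and nuclear genes encode all the rest. Assembly factors join the parts together and do not stay in the finished enzyme. Skeletal muscle relies on complex I when it contracts for long periods.

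The total of estimated counts ran from 8052369 to 18159144 per library, with a median of 11513304 for unstimulated tissues, 10488375 under 1 Hz, 9429275 under 4 Hz, and 9587933 under 10 Hz. Myotube genes were abundant in controls, with a median of 7134 TPM, the share of transcripts after correction for length, for Acta1, skeletal muscle actin, and 1293 TPM for Des, desmin. Of 4 macrophage markers, Ptprc and Adgre1 stayed at or below 0.0467 TPM in all libraries and Csf1r at or below 0.294 TPM, while Cd68, a lysosomal protein, had 55.1 to 102 TPM. The endothelial marker Pecam1 stayed at or below 0.326 TPM. The fibroblast marker Dcn had 147 TPM in controls, and the summed level of 4 fibroblast markers overlapped between conditions (125 to 184 TPM in controls and 140 to 224 TPM at 4 Hz), with 2 of the 4 called higher and 1 lower. Myoblast markers, 4 in number, did not move together. At 4 Hz, edgeR called Myod1 (log2(fold change) −1.75) and Pax7 (−1.53) lower and Myf5 higher (1.17, adjusted p = 9.2e-08), and Vcam1 was not called (0.29). Their sum, of which Myod1 makes up the most, was 195 to 234 TPM unstimulated, 73.4 to 121 TPM under 1 Hz, 60.2 to 95.6 TPM under 4 Hz, and 180 to 218 TPM under 10 Hz. Of 4 markers of cycling cells, Mki67 (−1.15, adjusted p = 0.029) and Ccnb1 (−1.06, adjusted p = 0.0081) were lower at 4 Hz by edgeR, Cdk1 was higher (0.51, adjusted p = 0.0015), and Top2a was not called (0.03). The part of these markers in the subunit changes was not tested. In these bulk samples, fewer cells of a type and less RNA per cell cannot be told apart.

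Subunit genes were far more abundant than assembly factor genes. Since TPM divides reads by transcript length, genes can be set side by side on it. The summed TPM of the tested subunits had a median of 8283 over the 6 controls (7916 to 9374), against 187 (167 to 198) for the 8 assembly factors. In controls, 38 of 39 tested subunits had a median above that of every assembly factor.

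**Figure D1:**
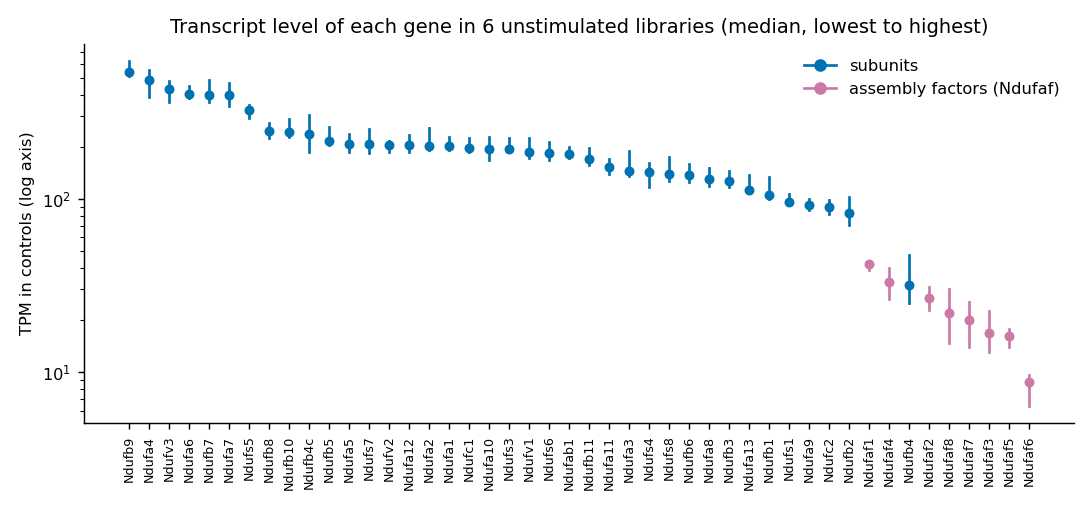
Each point is the median TPM (log axis) of 1 of 46 genes over the 6 unstimulated libraries, and each line runs from the lowest to the highest library. Subunits (blue) run from Ndufb9 at 542 TPM to Ndufb4 at 31.9 TPM, and assembly factors (pink) from Ndufaf1 at 42.0 TPM to Ndufaf6 at 8.74 TPM.

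Ndufb9, a subunit of the distal membrane arm, was the most abundant member, with 510, 542, and 623 TPM as the lowest, median, and highest control. Ndufa4 followed with 389, 487, and 557 TPM. Ndufv3, a small N module subunit, had 363, 432, and 479 TPM. The ranges of Ndufb9 and Ndufa4 overlap, as do those of Ndufa4 and Ndufv3, whereas all controls of Ndufb9 were above those of Ndufv3. Between 100 and 300 TPM, 27 subunits had close medians. At the bottom were Ndufaf3, Ndufaf5, and Ndufaf6, which act early in the building of the Q module and its surroundings. Ndufaf3 had a lowest, median, and highest control of 13.1, 16.8, and 22.6 TPM, and Ndufaf5 had 13.9, 16.1, and 17.8 TPM. Ndufaf6 was lower than both, with 6.41, 8.74, and 9.58 TPM and no overlap with either.

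Ndufb4 needs a separate word, since its low level depends on how reads were shared with copies. The 390 bases from position 95 to 484 of its transcript, which hold the coding sequence, occur without a mismatch in Ndufb4c, a transcribed processed pseudogene on chromosome 15, and in Ndufb4b, a long noncoding RNA on chromosome 19. The first 120 of these bases, the same letter for letter in all 3 genes in GENCODE M39, are shown because they make the copies impossible to tell apart there (capitals mark the start codon).
Ndufb4, Ndufb4b, and Ndufb4c: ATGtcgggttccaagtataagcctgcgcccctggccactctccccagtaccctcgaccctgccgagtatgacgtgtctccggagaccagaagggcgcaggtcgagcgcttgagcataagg
Ndufb4 lies at chr16:37467242-37474815 and Ndufb4c at chr15:73681356-73681745, both on the minus strand of GRCm39. In the deposited values, the copy had the greater part. Ndufb4c had 186, 235, and 306 TPM as the lowest, median, and highest control, and Ndufb4 had 24.9, 31.9, and 47.2 TPM. How reads from Ndufb4 transcripts were divided among the 3 genes is uncertain, and so are their separate levels. Ndufb4b had a mean of 4.03 estimated counts and a count in 5 of 24 libraries. It fell under the filter on low counts with 3 others. Ndufs6b, 96.6% identical to Ndufs6 over its 348 bases, had a mean of 0.343 counts. Ndufa11b, 94.8% identical to Ndufa11, had a mean of 0.0834. Ndufb11b had 0 counts in all 24 libraries, which allows up to 0.0113 CPM (counts scaled to library depth) over the 264848114 counts. The remaining 47 members were tested with all other genes above the filter. They were 8 assembly factors and 39 subunits, of which 37 belong to a module of complex I and the others are Ndufa4 and Ndufb4c.

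The first question was whether daily stimulation changed complex I transcripts. Fold changes are those of edgeR's quasi-likelihood fit on counts, stimulated minus control, and a gene was called at a Benjamini-Hochberg adjusted p under 0.05 over all genes tested. At 4 Hz, 32 of 39 subunits were called higher and 0 lower, with a median log2(fold change) of 0.47. The 8 assembly factors divided into 2 that rose, 2 that fell, and 4 that were not called. Among all genes tested, 27.5% were called higher at 4 Hz and 23.9% lower, with a median of 0.06. But 33 of the 39 subunits lie in the shortest eighth of genes by transcript length, where 54% were called higher. With a smooth trend of each library on transcript length removed, the subunit median at 4 Hz was 0.08. In that fit 9 members were called higher and 5 lower, where 24.8% and 24.5% of all genes were. At 1 Hz, 11 subunits rose and 0 fell, with a median of 0.30, and 1 assembly factor rose while 2 fell. There 19.2% of all genes were called higher and 18.1% lower, with a median of 0.04. In the shortest eighth, 31.5% were called higher at 1 Hz. With the length trend removed, 0 members were called higher at 1 Hz and 3 lower, where 19.3% and 19% of all genes were. At 10 Hz, 0 members were called in either direction.

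**Figure D2:**
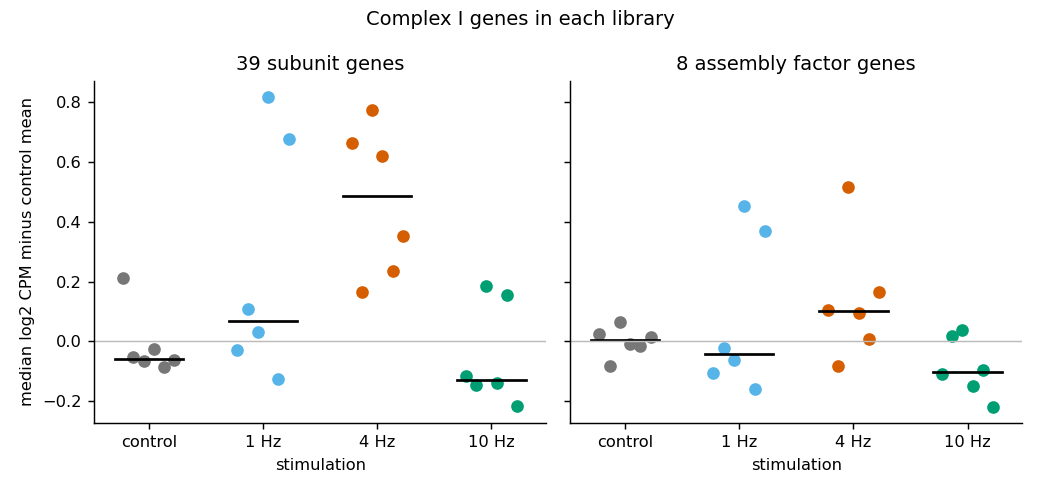
Each point is 1 library, placed at the median over 39 subunits (left) or 8 assembly factors (right) of log2 CPM minus the mean of the controls, and black lines are the medians of 6 libraries. Subunits at 4 Hz run from 0.16 to 0.78, while at 1 Hz 2 libraries, replicates 4 and 6, stand at 0.82 and 0.68 and the other 4 between −0.13 and 0.11.

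The libraries of a condition were not alike. At 1 Hz, the per-library subunit median had a mean ± SD of 0.25 ± 0.40 (n = 6), against −0.01 ± 0.11 (n = 6) in controls. Replicates 4 and 6 were the only 1 Hz libraries above the highest control, at 0.21. Without those 2 libraries, 0 members rose at 1 Hz and the subunit median was −0.03, while 13.1% of all genes were still called higher. Leaving out replicate 4 alone or replicate 6 alone also left 0 members called higher. The number called higher was 6 without control replicate 2, 2 without control replicate 3, 1 without control replicate 4, 3 without control replicate 5, and 2 without control replicate 6. Leaving out another single library instead could raise the number above that of the fit on all libraries. At 4 Hz the per-library subunit median was 0.47 ± 0.25 (SD, n = 6), with replicates 1, 3, and 4 between 0.62 and 0.78. Without all 3 of those, the subunit median was 0.28 and 2 members rose, Ndufa11 and Ndufaf8, with 13.7% of all genes called higher. Without any single library, between 23 and 39 members rose at 4 Hz.

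**Figure D3:**
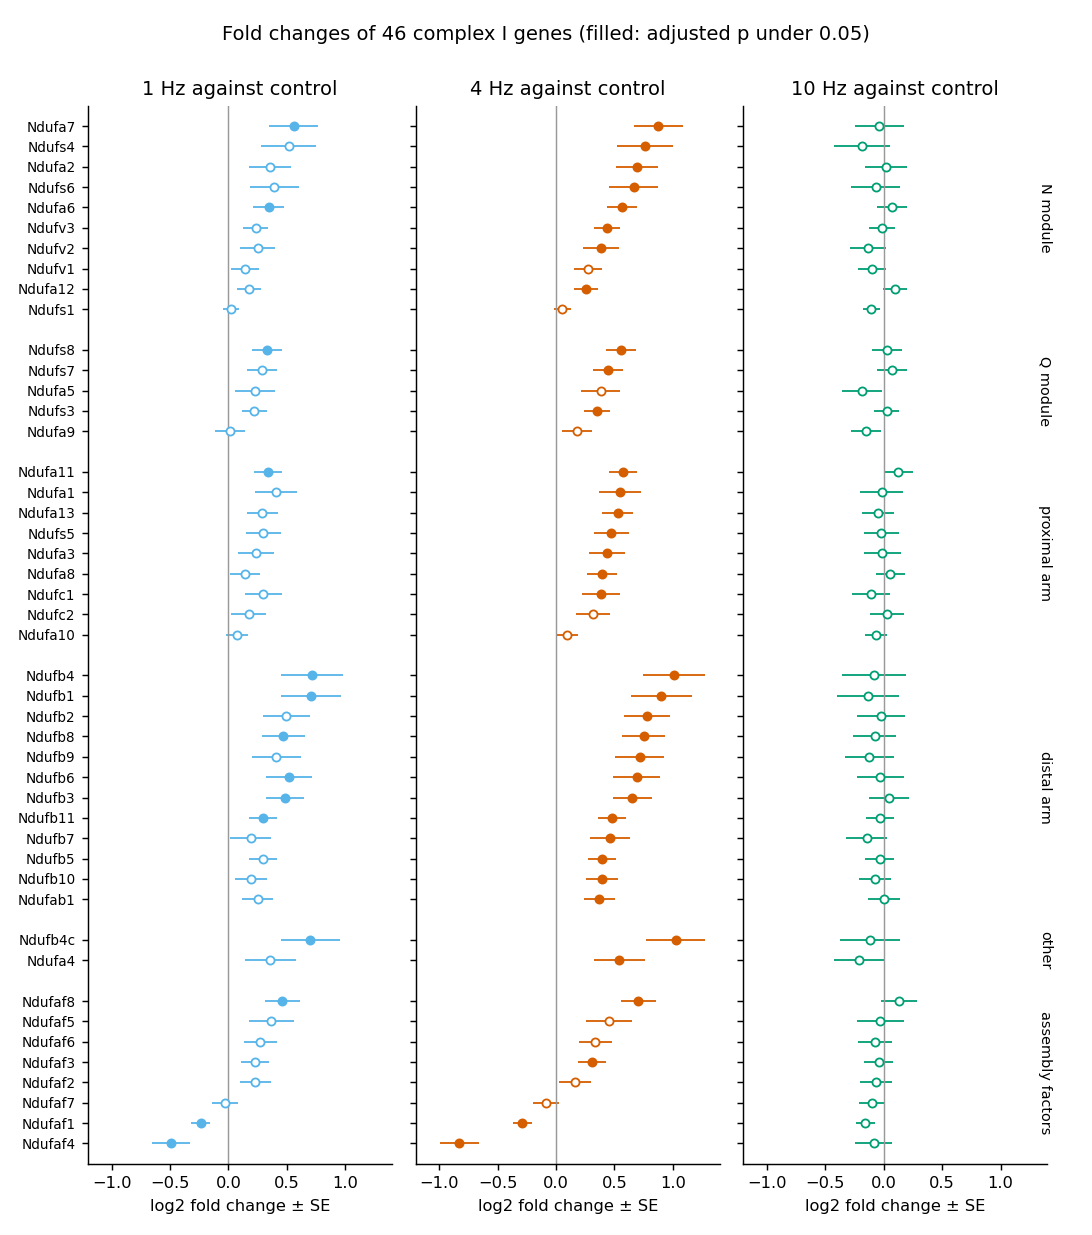
Each point is the log2 fold change of 1 gene against control, for 46 of the 47 tested, with its standard error, from edgeR's fit of counts, and filled points have an adjusted p under 0.05. All 38 subunits drawn lie right of 0 at 1 and 4 Hz, whereas of the 39 tested 14 and 7 lie below 0 on log2(TPM + 1), and 19 and 14 with the length trend removed. At 10 Hz the points lie on both sides of 0.

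The N module holds the NADH site. At 4 Hz, 8 of its 10 subunits rose, with a median log2(fold change) of 0.50, and 2 of 10 rose at 1 Hz. Among all genes tested, 27.5% and 19.2% were called higher at 4 and 1 Hz. With a smooth trend of each library on transcript length removed, Ndufa7 was the only N module subunit called higher at 4 Hz. Ndufa12 was called lower there. Ndufa7, an accessory subunit, changed most, with a log2(fold change) of 0.88 ± 0.21 (SE, adjusted p = 0.0017) under 4 Hz and 0.56 ± 0.21 (SE, adjusted p = 0.041) under 1 Hz. All 6 libraries at 4 Hz (108 to 237 CPM) were above the highest control, at 98.1 CPM. Ndufa6, another accessory subunit, had 98.5, 103, and 118 CPM as the lowest, median, and highest control and 125, 160, and 182 CPM at 4 Hz. Its 4 Hz libraries did not overlap the controls, and the log2(fold change) was 0.57 ± 0.13 (SE, adjusted p = 0.00089), a call lost with the length trend removed. At 1 Hz Ndufa6 had 101, 117, and 187 CPM, which overlaps the controls, with 0.34 ± 0.13 (SE, adjusted p = 0.039). This call ended without control replicate 2, 3, 4, or 6 and without 1 Hz replicate 4 or 6. Ndufv3 had 83.2, 96.7, and 109 CPM in controls and 104, 127, and 154 CPM at 4 Hz, with 0.44 ± 0.11 (SE, adjusted p = 0.0017). With the length trend removed, Ndufv3 had −0.10 (adjusted p = 0.24).

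The core subunits encoded in the nucleus, which include the carriers of the flavin and the iron-sulfur clusters, are 7 in number. At 4 Hz, 4 of 7 rose, with a median log2(fold change) of 0.35, where 27.5% of all genes were called higher. With the length trend removed, Ndufs8 was the only one of the 7 called higher. Whether they differed from the other subunits was not tested. Ndufv1, which binds NADH and the flavin, had 147, 155, and 194 CPM in controls and 171, 186, and 235 CPM at 4 Hz. These ranges overlap, and the log2(fold change) of 0.27 ± 0.12 (SE) had an adjusted p of 0.059. Ndufv2, an iron-sulfur subunit, had 100, 106, and 116 CPM in controls and 114, 132, and 189 CPM at 4 Hz, with 0.39 ± 0.15 (SE, adjusted p = 0.036). That call was lost without 4 Hz replicate 1, 3, or 4 and without any control but replicate 1. Ndufs1, the largest subunit and the bearer of several iron-sulfur clusters, had 145, 153, and 164 CPM in controls and 150, 157, and 175 CPM at 4 Hz. At 4 Hz, 4 of 6 libraries lay within the range of the controls, and the difference was 0.05 ± 0.07 (SE, adjusted p = 0.53). Limma on log2(TPM + 1) gave −0.27 for Ndufs1 (adjusted p = 0.0072). On that scale all genes had a median of −0.21 at 4 Hz, and 35.9% were called lower.

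The Q module holds the other core subunits, and 3 of 6 subunits rose at 4 Hz, with a median log2(fold change) of 0.37. By comparison, 27.5% of all genes tested were called higher. With the length trend removed, Ndufs8 alone was called higher, Ndufa5 was called lower, and the calls of Ndufs3 and Ndufs7 were lost. Ndufs3, a structural subunit of that module, had 104, 110, and 130 CPM in controls and 129, 140, and 163 CPM at 4 Hz, with 0.35 ± 0.11 (SE, adjusted p = 0.0088). Only the lowest 4 Hz library of Ndufs3 fell within the range of the controls. Ndufs7 carries the last iron-sulfur cluster before ubiquinone. It had 69.5, 75.4, and 97.6 CPM in controls and 95.3, 103, and 131 CPM at 4 Hz, with 0.45 ± 0.13 (SE, adjusted p = 0.0060). Ndufs8 had the largest change of the core, with 49.1, 56.1, and 70.6 CPM in controls and 69.8, 82.1, and 99.3 CPM at 4 Hz. Its log2(fold change) was 0.56 ± 0.13 (SE, adjusted p = 0.00097). Ndufs8 was also the 1 core subunit called at 1 Hz, with 0.33 ± 0.13 (SE, adjusted p = 0.046), a call lost without any 1 of control replicates 2 to 6 or without 1 Hz replicate 4 or 6.

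In the proximal membrane arm, 7 of 9 subunits rose at 4 Hz, with a median log2(fold change) of 0.44, where 27.5% of all genes were called higher. With the length trend removed, Ndufa13 was the only one called higher, and Ndufc1 turned from a higher to a lower call. Ndufa11, a subunit of the proximal arm, had the smallest adjusted p of all subunits. It had 31.8, 34.4, and 39.9 CPM as the lowest, median, and highest control, 33.0, 38.0, and 59.9 CPM at 1 Hz, 41.2, 51.4, and 63.2 CPM at 4 Hz, and 34.2, 38.5, and 41.7 CPM at 10 Hz. All 6 libraries at 4 Hz were above all controls, whereas at 1 Hz 2 were. The log2(fold change) was 0.57 ± 0.12 (SE, adjusted p = 0.00044) at 4 Hz and 0.34 ± 0.12 (SE, adjusted p = 0.031) at 1 Hz. Without 1 Hz replicate 4 or 6, or without control replicate 2, 4, 5, or 6, the 1 Hz call was lost. With the length trend removed, Ndufa11 had 0.04 at 4 Hz (adjusted p = 0.55) and −0.03 at 1 Hz.

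The distal membrane arm was the only module with every subunit called at 4 Hz: 12 of 12 rose, with a median log2(fold change) of 0.67, and 6 of 12 rose at 1 Hz, with 0.44. All genes tested had shares of 27.5% and 19.2% called higher at 4 and 1 Hz. With the length trend removed, 5 of the 12 were called higher at 4 Hz, and Ndufab1, Ndufb5, Ndufb7, and Ndufb10 lay below 0. Whether this module differed from the others was not tested. Ndufb9 had 169, 182, and 218 CPM in controls, 164, 200, and 385 CPM at 1 Hz, and 221, 285, and 473 CPM at 4 Hz. Its lowest 4 Hz library was just above the highest control, and the log2(fold change) was 0.72 ± 0.21 (SE, adjusted p = 0.0077), a call lost with the length trend removed. Ndufb3 had 42.0, 47.5, and 56.3 CPM in controls and 57.4, 71.6, and 101 CPM at 4 Hz, again without overlap, with 0.65 ± 0.17 (SE, adjusted p = 0.0024). At 1 Hz Ndufb3 had 45.2, 57.7, and 101 CPM, with 0.48 ± 0.17 (SE, adjusted p = 0.025), a call lost without 1 Hz replicate 4 or 6 or control replicate 3 or 4. Ndufb8, Ndufb2, and Ndufb5 likewise had all 6 libraries at 4 Hz above all controls, with log2(fold changes) of 0.75, 0.78, and 0.40. With the length trend removed, Ndufb2 had 0.18 (adjusted p = 0.12) and Ndufb5 −0.03 (adjusted p = 0.70).

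At 4 Hz, the largest fold changes belonged to genes that share their sequence. Ndufb4 had 12.9, 15.1, and 20.4 CPM in controls and 18.7, 27.7, and 52.8 CPM at 4 Hz, with 1.01 ± 0.27 (SE, adjusted p = 0.0033). Ndufb4c had 24.2, 30.6, and 39.7 CPM in controls and 38.1, 58.6, and 101 CPM at 4 Hz, with 1.02 ± 0.25 (SE, adjusted p = 0.0020). When the counts of Ndufb4, Ndufb4b, and Ndufb4c were summed into 1 gene, the log2(fold change) under 4 Hz was 1.02 (edgeR, adjusted p = 0.0025). Under 1 Hz it was 0.71 (adjusted p = 0.034), while the separate 1 Hz calls of Ndufb4 and Ndufb4c were each lost without several single libraries. Ndufa4, with 88.2, 105, and 130 CPM in controls and 109, 141, and 253 CPM at 4 Hz, had 0.54 ± 0.22 (SE, adjusted p = 0.043). The call of Ndufa4 was lost without 4 Hz replicate 1, 3, or 6 or without any control but replicate 1, and with the length trend removed the value was −0.02 (adjusted p = 0.92).

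In all, 8 subunits had every 4 Hz library above every control, where 12.9% of all genes did. At 1 Hz 0 members did, where 5.55% of all genes did. Adding the threshold of 0.5 on the absolute log2(fold change), 19 members rose at 4 Hz and 5 at 1 Hz, against 12.8% and 7.19% of all genes.

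Assembly factors did not move as a group. Ndufaf8, which stabilizes the hydroxylase Ndufaf5, had the largest rise. It had 4.28, 5.34, and 7.13 CPM as the lowest, median, and highest control, 4.83, 7.81, and 9.11 CPM at 1 Hz, 6.79, 8.58, and 10.4 CPM at 4 Hz, and 4.81, 5.68, and 7.23 CPM at 10 Hz. At 4 Hz, 5 of 6 libraries were above all controls, and the log2(fold change) was 0.70 ± 0.15 (SE, adjusted p = 0.00045). At 1 Hz it was 0.46 ± 0.15 (SE, adjusted p = 0.019), a call lost without control replicate 4 or 1 Hz replicate 4 or 6. On the TPM scale, limma gave Ndufaf8 a log2(fold change) of 0.39 at 4 Hz with an adjusted p of 0.072, and with the length trend removed edgeR gave 0.21 (adjusted p = 0.19). Ndufaf3 had 6.42, 7.12, and 8.92 CPM in controls and 7.47, 9.08, and 10.1 CPM at 4 Hz, with 0.31 ± 0.12 (SE, adjusted p = 0.037) on the count scale and −0.24 (adjusted p = 0.20) by limma on the TPM scale. The call of Ndufaf3 was lost without control replicate 2, 3, 4, or 5 or without 4 Hz replicate 1, 3, 4, or 6.

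Ndufaf4, which works with Ndufaf3 on the Q module, moved the other way. It had 38.4, 44.0, and 49.7 CPM unstimulated, 18.4, 29.4, and 46.8 CPM at 1 Hz, 15.6, 24.2, and 31.2 CPM at 4 Hz, and 35.7, 40.8, and 46.5 CPM at 10 Hz. All 6 libraries at 4 Hz and 5 of 6 at 1 Hz were below all controls. Its log2(fold change) was −0.83 ± 0.17 (SE, adjusted p = 0.00024) at 4 Hz and −0.49 ± 0.16 (SE, adjusted p = 0.020) at 1 Hz. Leaving out control replicate 3, or 1 Hz replicate 2, ended the 1 Hz call. Ndufaf1, a member of the complex that assembles the membrane arm, had 28.8, 31.6, and 32.4 CPM unstimulated, 21.9, 26.0, and 31.3 CPM at 1 Hz, 22.3, 25.4, and 28.1 CPM at 4 Hz, and 26.1, 27.8, and 29.6 CPM at 10 Hz. It was below all controls in 6 of 6 libraries at 4 Hz and 5 of 6 at 1 Hz. The log2(fold change) was −0.29 ± 0.08 (SE, adjusted p = 0.0042) at 4 Hz and −0.24 ± 0.08 (SE, adjusted p = 0.020) at 1 Hz, a call that leaving out 1 Hz replicate 2 ended (adjusted p = 0.060). Ndufaf4 and Ndufaf1 were thus the 2 members with every 4 Hz library below every control, where 14.7% of all genes were. At 1 Hz 0 members were, where 8.58% of all genes were. Neither has an annotated opposite-strand neighbour, and both were called at 4 Hz in each of the 24 other settings in which they were refitted. Ndufaf1 does not reach a log2(fold change) of 0.5.

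The other 4 assembly factors were not called. Ndufaf5, which hydroxylates Ndufs7, had 8.78, 10.4, and 10.98 CPM in controls and 8.39, 12.4, and 23.1 CPM at 4 Hz, with 0.46 ± 0.20 (SE, adjusted p = 0.056). Ndufaf6 had 3.70, 4.38, and 4.84 CPM in controls and 4.58, 4.80, and 7.79 CPM at 4 Hz, with 0.33 ± 0.14 (SE, adjusted p = 0.050, just over the threshold). Ndufaf2, a relative of the subunit Ndufa12, had 7.21, 8.52, and 9.21 CPM in controls and 8.29, 8.85, and 13.8 CPM at 4 Hz. Its log2(fold change) was 0.16 ± 0.14 (SE, adjusted p = 0.33). Ndufaf7, a methyltransferase, had 15.1, 16.3, and 17.1 CPM in controls and 12.5, 15.6, and 17.5 CPM at 4 Hz, with −0.09 ± 0.11 (SE, adjusted p = 0.53). Depth was low for some. Ndufaf2, Ndufaf3, Ndufaf6, and Ndufaf8, of which Ndufaf3 and Ndufaf8 were called at 4 Hz, had under 100 estimated counts per library on average, with 52.7 for Ndufaf6.

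**Figure D4:**
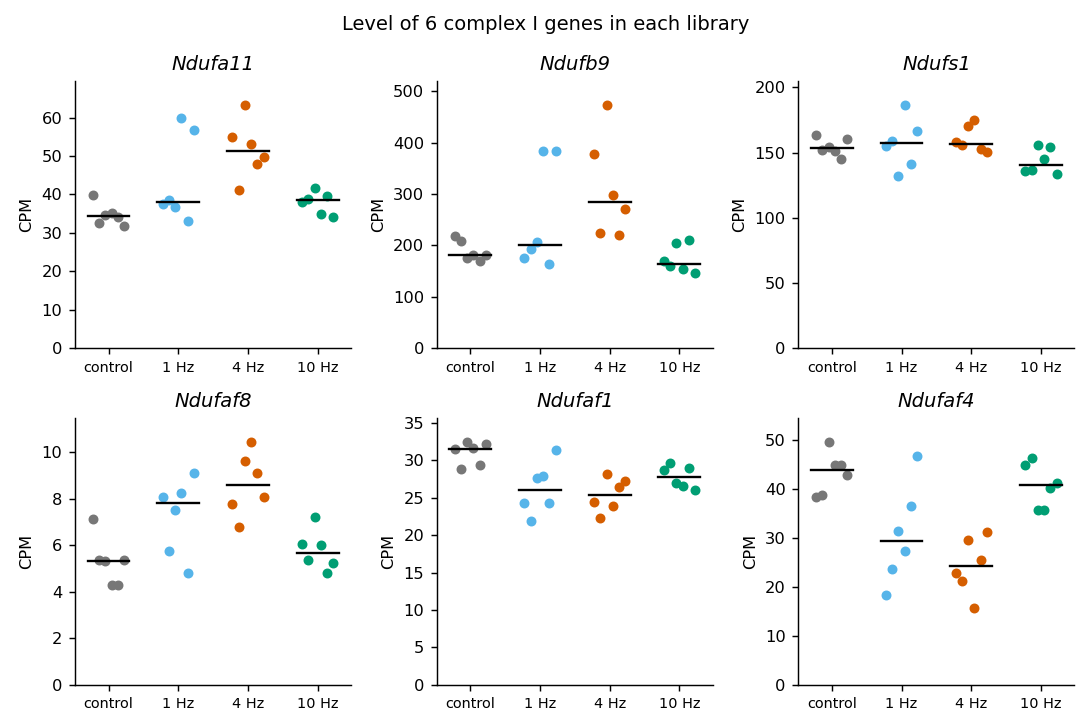
Each point is the CPM of 1 library, and black lines are the medians of 6. Ndufa11 and Ndufb9 at 4 Hz lie above all controls, Ndufs1 overlaps them, Ndufaf8 lies above them in 5 of 6 libraries, and Ndufaf1 and Ndufaf4 lie below them in 6 of 6.

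The promoters of Ndufaf8 and Ndufaf4 are shown because these assembly factors changed most, in opposite directions. They are the 250 bases before the start of the canonical GENCODE M39 transcript, read 5′ to 3′ from GRCm39 at chr11:119989486-119989735 and chr4:24897831-24898080, both on the plus strand. Capitals mark GGGCGG, the core of the SP1 motif, and GCGCATGCG, that of NRF1, a regulator of many respiratory chain genes, on either strand.
Ndufaf8: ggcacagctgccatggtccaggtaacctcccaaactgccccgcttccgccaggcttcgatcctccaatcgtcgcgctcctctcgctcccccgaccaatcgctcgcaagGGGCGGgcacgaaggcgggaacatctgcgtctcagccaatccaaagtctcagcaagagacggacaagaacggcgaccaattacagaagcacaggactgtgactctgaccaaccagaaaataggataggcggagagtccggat
Ndufaf4: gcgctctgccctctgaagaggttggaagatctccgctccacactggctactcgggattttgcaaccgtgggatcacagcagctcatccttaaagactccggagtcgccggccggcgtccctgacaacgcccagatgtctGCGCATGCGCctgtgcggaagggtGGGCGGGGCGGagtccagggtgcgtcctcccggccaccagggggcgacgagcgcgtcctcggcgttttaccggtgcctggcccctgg
Over windows from 250 bases before to 50 after the start, GCGCATGCG occurred in 1 of 38 subunit promoters and 2 of 8 assembly factor promoters, against 3.33% of the 12102 protein-coding genes tested. CCGGAAG, the ETS core bound by GABP, was in 4 and 3, against 15.8%. AAGATGGC, the YY1 core, was in 4 and 1, against 3.6%. AAGGTCA, the core of the estrogen-related receptors, was in 4 and 0, against 3.61%, and GGGCGG was in 15 and 6, against 58.8%. Both strands were searched, none of the motifs contains another, and copies of GGGCGG may overlap. A match of letters is a description and not a binding site.

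At 10 Hz, complex I genes stayed near the controls. Subunits had a median log2(fold change) of −0.04 and assembly factors of −0.07, and the 47 members ran from −0.21 to 0.13. With edgeR, 0 members were called higher, where 0.015% of all genes were, and 0 lower, where 0.0225% were, and 0 members had an unadjusted p under 0.05. DESeq2's Wald test also called 0, with 1 at an unadjusted p under 0.05 and 1 given no adjusted p, and it called 0.178% of all genes higher and 0.323% lower. Libraries at 10 Hz were all above the controls for 0 members and all below for 0, against 0.774% and 0.864% of all genes. The 95% intervals of the members reached from −0.65 to 0.45, and they differ in width between genes. Ndufb9, for example, had 147, 164, and 210 CPM at 10 Hz.

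The frequencies were then compared with each other in the same fit. Between 4 and 1 Hz, 0 members were called by edgeR and by DESeq2, with 0 and 1 at an unadjusted p under 0.05, and DESeq2 gave 8 of the members no adjusted p. Among all genes edgeR called 0 (0%), with 1465 at an unadjusted p under 0.05, and DESeq2 called 0.0617% higher and 0.147% lower. The 39 subunits were all higher at 4 than at 1 Hz on counts, with a median difference of 0.18, but none was called. Among them, only Ndufa8 had a 95% interval that left out 0 (0.00324 to 0.505), with an unadjusted edgeR p of 0.057. On log2(TPM + 1) 7 were lower (median 0.09), and 7, not all the same genes, were lower with the length trend removed (median 0.06). On counts the 95% intervals of the members reached from −0.67 to 0.81. Between 10 and 4 Hz, 38 members were lower at 10 Hz, where 24.4% of all genes were, and 1 was higher, where 21.9% were. The 38 were 34 of 39 subunits and 4 assembly factors (the subunit median was −0.51, or −0.17 with the trend on transcript length removed and −0.20 on log2(TPM + 1)), and the 1 was Ndufaf4 at 0.74 (adjusted p = 0.0010). Of 6 myotube markers, 4 were also lower at 10 than at 4 Hz, with a median of −0.36, and their part in the subunit difference was not tested. By module, 8 of 10 N, 5 of 6 Q, 7 of 9 proximal, and 12 of 12 distal subunits were lower. Between 10 and 1 Hz, 9 members were lower at 10 Hz and 0 higher, where 13.1% and 14.8% of all genes were. Members called in either direction between 10 and 1 Hz numbered 0 without 1 Hz replicate 4 and without 10 Hz replicate 6, and 1 without 1 Hz replicate 6. The number was 2 without 10 Hz replicate 1 or 4, 3 without 10 Hz replicate 2, and 14 without 10 Hz replicate 3 or 5. It was 18 without 1 Hz replicate 1 and 20 without 1 Hz replicate 5.

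Transcript length moved with these changes across the whole table. Subunit transcripts are short, with a median effective length (estimated counts over TPM) of 0.212 times that of the median tested gene, and 33 of 39 fell in the shortest eighth of the genes tested. All 1665 genes of that eighth had a median of 0.44 under 4 Hz, with 54% called higher, and of 0.30 under 1 Hz, with 31.5% called higher. The corresponding log2(fold changes) of the longest eighth were −0.16 and −0.10. The 33 subunits of the shortest eighth had a median of 0.54 at 4 Hz, with 31 called higher, and 0.33 at 1 Hz, with 11 called higher. At 1 Hz, 11 of 33 stands near the 31.5% of all genes of such length.

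**Figure D5:**
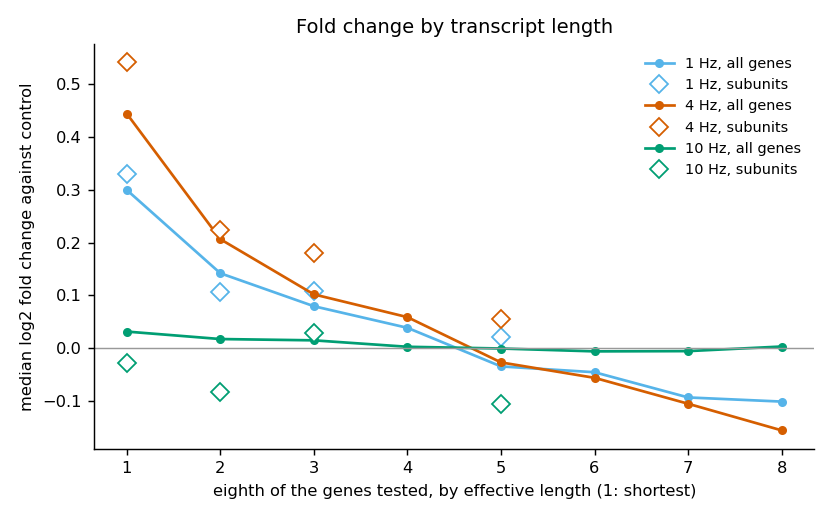
Lines give the median log2 fold change against control of all genes tested, in eighths by effective length (1 is the shortest), and open diamonds give the median of the subunits in the same eighth. At 4 Hz, all genes run from 0.44 in the shortest eighth to −0.16 in the longest, and the 33 subunits of the shortest eighth have 0.54; eighths 3 and 5 hold 1 subunit each.

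The same libraries stood out by length. The median log2 CPM of the shortest eighth minus that of the longest, relative to controls, was 1.04 and 0.90 in 1 Hz replicates 4 and 6 and between 0.74 and 0.95 in 4 Hz replicates 1, 3, and 4. It ran from −0.11 to 0.26 in the controls. When a smooth trend of each library on length was removed, the subunit median was 0.08 at 4 Hz and 0.01 at 1 Hz, with all genes at 0.03 and 0.02. In that fit 9 members were called higher at 4 Hz and 5 lower, where 24.8% and 24.5% of all genes were. At 1 Hz 0 were higher and 3 lower, where 19.3% and 19% of all genes were. The 9 were Ndufb1, Ndufb3, Ndufb4, Ndufb4c, Ndufb8, Ndufb11, Ndufa7, Ndufa13, and Ndufs8, of which 5 are in the distal arm. Ndufb8 had 0.28 ± 0.09 (SE, adjusted p = 0.0093) and Ndufa13, of the proximal arm, 0.33 ± 0.09 (SE, adjusted p = 0.0020). The 5 lower were Ndufaf1, Ndufaf4, Ndufa5, Ndufa12, and Ndufc1. On counts without this correction, Ndufa12 and Ndufc1 had been called higher. Ndufaf4 had −0.85 and Ndufaf1 −0.45 (adjusted p = 0.00027 and 1e-05), beside −0.83 and −0.29 without this correction. The median of the 8 assembly factors was 0.24 on counts at 4 Hz and turned to −0.11 without the trend and to −0.20 on log2(TPM + 1).

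On the TPM scale all genes shifted, with a median of −0.21 at 4 Hz and −0.14 at 1 Hz, and subunits stood at 0.13 and 0.07. Limma called 11 members higher and 4 lower at 4 Hz, where 5.83% and 35.9% of all genes were. At 1 Hz it called 0 higher and 2 lower, where 3.58% and 21.9% were. Summed TPM of the subunits was 8368 ± 535 (SD, n = 6) unstimulated, 8877 ± 1359 under 1 Hz, 9576 ± 975 under 4 Hz, and 7987 ± 523 under 10 Hz. Summed TPM of the assembly factors was 185 ± 10.6 (SD, n = 6) unstimulated, 163 ± 10.3 under 1 Hz, 150 ± 7.84 under 4 Hz, and 168 ± 13.2 under 10 Hz. All 6 libraries at 4 Hz (138 to 160 TPM) were below the lowest control at 167 TPM. Most of that difference lay in Ndufaf1, with a mean of 41.3 TPM in controls and 26.2 TPM at 4 Hz, and Ndufaf4, with 33.1 and 16.1 TPM, while Ndufaf8 went from 22.2 to 29.0 TPM. A set of 9 RNAs that lack a poly(A) tail summed to 185 to 244 TPM in unstimulated tissues, 202 to 447 TPM under 1 Hz, 206 to 604 TPM under 4 Hz, and 161 to 273 TPM under 10 Hz. Of the 5 that were tested, Rmrp, Rpph1, and Rn7sk were called higher at 4 Hz, with log2(fold changes) of 3.56, 2.39, and 1.72, and at 1 Hz, with 3.55, 2.15, and 1.58. H1f4 was called lower at 1 Hz (−0.89), and at 10 Hz edgeR gave all 5 an adjusted p of 0.21 or more. By library, the sum of the 9 RNAs did not follow the length difference throughout. At 1 Hz it was 447 and 219 TPM in replicates 4 and 6, 374 and 389 TPM in replicates 2 and 3, and 242 and 202 TPM in replicates 1 and 5. At 4 Hz it was 307, 302, and 604 TPM in replicates 1, 3, and 4, and 206, 230, and 231 TPM in replicates 2, 5, and 6. The labels say that samples with little RNA were ribodepleted in place of poly(A) selection and do not say which. The part of transcript length and library type in the subunit changes was not tested.

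The other genes of the respiratory chain came from lists of known subunits. At 4 Hz, 3 of 4 complex II genes, 7 of 9 of complex III, 10 of 11 of complex IV (Ndufa4 included), and 10 of 15 of complex V rose, with medians of 0.30, 0.42, 0.56, and 0.39, and 0 fell. At 1 Hz 0, 3, 5, and 3 rose. Of all genes tested, 27.5% were called higher at 4 Hz and 19.2% at 1 Hz. In the shortest eighth by length, the shares were 54% and 31.5%. In complex III, Uqcrq and Uqcrh, small subunits, had 0.74 and 0.95 at 4 Hz, while Sdha, the large flavoprotein of complex II, had 0.10 (adjusted p = 0.22). Cox6a1 and Cox8a of complex IV had 0.56 and 0.45. Genes of complexes III and IV had a median length of 0.155 and 0.173 times that of the median tested gene, those of complex V 0.234, and those of complex II 0.515.

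The 7 complex I genes of the mitochondrial genome varied widely between libraries. Their summed TPM ran from 5498 to 11145 in controls and from 1835 to 32426 at 4 Hz, where replicate 1 was the lowest and replicate 3 the highest. The same 2 libraries had nuclear subunit medians of 0.67 and 0.78. At 4 Hz 1 of the 7 rose, mt-Nd1, with 1.34 ± 0.50 (SE, adjusted p = 0.031), and the median was 0.93. By comparison, 27.5% of all genes were called higher at 4 Hz. Of 10 tested assembly factors with other names, 3 rose and 1 fell at 4 Hz, beside 27.5% and 23.9% of all genes. Dmac2 and Nubpl, which serves iron-sulfur assembly, had 0.61 (adjusted p = 6.8e-05) and 0.40 (adjusted p = 0.0030). Tmem186 fell with −0.89 ± 0.15 (SE, adjusted p = 3.3e-05). Acad9 (0.02), Ecsit (−0.05), Tmem126b (0.14), Timmdc1 (0.12), Foxred1 (−0.02), and Tmem70 (0.13) were not called (edgeR adjusted p of 0.23 or more).

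The libraries were made with a directional kit, which keeps the strand of the RNA, but whether counting used it is not given in the sources used here. For 29 of the 47 tested members, the annotation places another gene on the other strand of the same stretch, whose reads could be counted with theirs if the strand was not used. Ndufaf8 overlaps Tepsin, Ndufa11 overlaps Vmac, and Ndufaf3 overlaps Impdh2. Of the 18 without such a neighbour, 12 were called higher at 4 Hz, among them Ndufa7, Ndufb4, and Ndufb8. The same call was made for 34 of the 47 members and for 27.5% of all genes tested.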

How the data were processed

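RNA of 24 C2C12 tissues was poly(A)-selected, or ribodepleted at low input, and read in pairs. The authors ran nf-core/rnaseq on GRCm39 with Ensembl annotation. They deposited Salmon's estimated counts per gene, not normalized (19% of non-zero values were not whole, tolerance 0.001), and TPM, scaled for length and depth by the authors' pipeline. The strand setting of the counting is not given in the sources used here.

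Members were matched by symbol. They and the gene lists were chosen with earlier results of these data known. Groups came from the labels. After rounding, edgeR 4.0.16 (R 4.3.3) fitted all 24 libraries by its quasi-likelihood test, with filterByExpr (at least 10 counts, 15 in total), TMM scaling, and robust dispersions, on 13315 genes. The coefficient of variation of 14.8% limits the smallest detectable change. The SE is the absolute log2(fold change) over the root of F, and intervals span 1.96 SE. Fits were tested on simulated data. GENCODE M39 gave positions and sequences.

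Values by library are given for the 3 members with the smallest p per direction and frequency, the Ndufaf genes, the core subunits, and the 3 highest and 3 lowest in controls. One member is not reported by itself here. Ndufa7, Ndufb2, Ndufb4, Ndufb4c, Ndufb5, Ndufb8, and Ndufa13 were singled out after their values were seen. Alternatives were DESeq2 1.42.0, limma 3.58.1 on log2(TPM + 1) and log2(TPM + 0.1), other scalings and filters, pairs of groups alone, effective-length and length-trend offsets, a replicate block, a fold threshold, and leaving out libraries.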

Additional observations from a re-analysis of the deposited data

Results flagged for a closer look

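In 3 of 104 groups of 6 libraries, the highest library stood far from the others by the 95% critical value of Dixon's ratio (its gap to the next library over the whole range), where chance alone gives about 1 in 20. The subunit median of control replicate 1 was 0.211 on the log2 scale, with a ratio of 0.794, and the same library had the highest length difference of the controls, at 0.261. Ndufv1 reached 194 CPM in its highest control (ratio 0.634). Ndufaf2 reached 13.8 CPM in its highest library at 4 Hz (ratio 0.855).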

How the results depend on the processing

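Values under other settings follow. Members called higher at 1 Hz numbered 12, and 1 with no filter (5.97% of all genes), 2 with the replicate block (17%), 0 by limma on either TPM scale (3.58% and 3.54%), 6 with effective lengths (15.4%), 0 with the length trend removed, 5 with the threshold of 0.5 added, and 0 without 1 Hz replicates 4 and 6. This last setting, the one without 4 Hz replicates 1, 3, and 4, and the sum of Ndufb4 copies were chosen after seeing the data. Leaving out 1 library gave 0 to 18. Members called lower at 1 Hz numbered 2, and 1 with no filter or the 2 groups alone, 0 with the threshold of 0.5, and 0 to 2 without 1 library. At 4 Hz, 34 were higher, and 11 by limma on either TPM scale, 9 with the length trend removed, 19 with the threshold of 0.5, 2 without replicates 1, 3, and 4, and 23 to 39 without 1 library. The 2 lower at 4 Hz became 4 by limma, 5 with the length trend removed, 1 with the threshold of 0.5, and remained 2 without any 1 library. Between 10 and 1 Hz, 9 were called in either direction, all lower. DESeq2 called 15 (14 lower, 1 higher), limma 4 (2 lower and 2 higher with a pseudocount of 1), no filter 0, the 2 groups alone 5, the replicate block 3, and leaving out 1 library 0 to 20. Between 10 and 4 Hz, the 39 called in either direction became 21 with the length trend removed, 18 by limma, and 22 with the threshold of 0.5 (30 to 40 without 1 library). The subunit median at 4 Hz was 0.473, and 0.133 and 0.134 by limma with pseudocounts of 1 and 0.1 and 0.0832 with the length trend removed. The assembly factor median was 0.228 at 1 Hz, −0.0352 with the length trend removed, −0.00574 and −0.00656 by limma, and 0.0269 without replicates 4 and 6. At 4 Hz it was 0.235, −0.201 and −0.211 by limma, −0.114 with the trend removed, 0.102 with effective lengths, and 0.0379 without replicates 1, 3, and 4. Counts at 10 Hz and between 4 and 1 Hz stayed at 0 in all settings.

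Of 1058 single values of 22 named members under other settings, 839 kept direction and call, 155 lost the call, 16 gained it, and 48 changed sign. With the length trend removed, the log2(fold change) at 1 Hz changed sign for Ndufa11 (−0.0275), Ndufa6 (−0.00125), Ndufaf2 (−0.072), Ndufa4 (−0.0376), and Ndufv3 (−0.117). With the length trend removed, the log2(fold change) at 4 Hz changed sign for Ndufaf2 (−0.289), Ndufaf3 (−0.0215), Ndufa4 (−0.0155), and Ndufv3 (−0.098). By limma on log2(TPM + 1), the log2(fold change) at 1 Hz changed sign for Ndufaf2 (−0.00185), Ndufaf3 (−0.00964), Ndufs1 (−0.204), Ndufs3 (−0.0167), Ndufv1 (−0.0939), and Ndufv2 (−0.0171). By limma on log2(TPM + 1), the log2(fold change) at 4 Hz changed sign for Ndufaf2 (−0.167), Ndufaf3 (−0.235), Ndufaf6 (−0.0438), Ndufs1 (−0.274), and Ndufv1 (−0.0988). By limma on log2(TPM + 0.1), the log2(fold change) at 1 Hz changed sign for Ndufaf2 (−0.00239), Ndufaf3 (−0.0107), Ndufs1 (−0.206), Ndufs3 (−0.0168), Ndufv1 (−0.0943), and Ndufv2 (−0.0173). By limma on log2(TPM + 0.1), the log2(fold change) at 4 Hz changed sign for Ndufaf2 (−0.173), Ndufaf3 (−0.249), Ndufaf6 (−0.0504), Ndufs1 (−0.277), and Ndufv1 (−0.0993). Without 1 Hz replicates 4 and 6, the log2(fold change) at 1 Hz changed sign for Ndufaf5 (−0.0191), Ndufs1 (−0.0946), Ndufs3 (−0.0186), Ndufv1 (−0.0959), Ndufv2 (−0.114), Ndufb9 (−0.0577), and Ndufa4 (−0.101). With no filter, the log2(fold change) at 1 Hz changed sign for Ndufs1 (−0.0111). Without 4 Hz replicates 1, 3, and 4, the log2(fold change) at 4 Hz changed sign for Ndufs1 (−0.0299). Leaving out 1 library moved Ndufaf7 at 1 Hz between −0.139 and 0.023, Ndufs1 at 1 Hz between −0.0565 and 0.0506, Ndufv1 at 1 Hz between −0.0135 and 0.198, and Ndufs1 at 4 Hz between −0.000782 and 0.0726. Causes of these differences were not tested. Over 36 pairs of libraries with the same number in 2 conditions, the correlation of deviations ran from −0.332 to 0.242, with 3 over 0.1. Pairs with different numbers were not compared, so these values do not decide whether the numbers pair the samples. The main fit did not pair them.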
